A study of Sus scrofa with 12 samples.

Results

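The receptors described here bind serotonin, dopamine, noradrenaline and adrenaline, histamine, acetylcholine at its muscarinic sites, glutamate at its metabotropic sites, and GABA at its GABA-B site. They were chosen by gene symbol from the annotation of the array: every serotonin (HTR), dopamine (DRD), adrenergic (ADRA1, ADRA2, ADRB), histamine (HRH), muscarinic (CHRM), metabotropic glutamate (GRM) and GABA-B (GABBR) receptor. The choice gave 38 genes on 62 probe sets, out of 13755 named genes and 47845 rows on the array. A gene was represented by its brightest probe set, the one with the highest mean over all arrays, and 12 genes had several. RNA came from the hypothalamus, the brain region that governs feeding, energy balance and pituitary hormones. It was taken from 12 pigs aged 140 days: 6 of low feed efficiency (3 females and 3 males) and 6 of high feed efficiency (3 females and 3 males), with 1 Snowball array, an Affymetrix pig array, per pig. No agent or altered allele is given for either group, and the labels name no breed, castration, litter or time of sampling.

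Most of these receptors are membrane proteins that act through G proteins. Gs raises cyclic AMP, Gi lowers it and damps transmitter release, and Gq releases calcium through phospholipase C. HTR3A and HTR3B differ in kind, since they encode subunits of a serotonin-gated ion channel. In the hypothalamus of rodents, serotonin acting at the 2C receptor and histamine acting at the H1 receptor reduce feeding. Dopamine restrains prolactin release at the D2 receptor of prolactin cells, which lie in the pituitary.

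The values were deposited on what their range shows to be a log2 scale, so a difference of 1 is a doubling of array signal if that reading is right, and array medians lay between 4.35 and 4.42. Of 10 hypothalamic marker genes, chosen after the values were seen, 6 were above all background on every array. Among them were OXT (lowest 11.29, median 11.91, highest 12.31) and HCRT, the orexin gene (lowest 7.91, median 8.32, highest 8.58). The others lay within the background range: TRH (median 7.69), GHRH (6.40), NKX2-1 (6.32) and CRH (4.43). All 5 oligodendrocyte, 5 of 6 astrocyte, 4 of 6 neuron and 3 of 4 microglia markers were above all background too. The counts were 0 of 6 for endothelial, 0 of 7 for choroid plexus and 0 of 7 for anterior pituitary markers. They were 1 of 3 for striatal, 0 of 4 for cortical and 1 of 6 for thalamic markers. A count of 0 does not show that a cell type or region was absent from the tissue. In such bulk tissue, fewer cells of a type and less RNA per cell cannot be told apart. The number of arrays limits the precision. The p-values set a difference against the spread between these 12 animals, moderated over all probe sets tested.

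The GABA-B subunit genes GABBR1 and GABBR2 and the metabotropic glutamate receptor genes GRM5 and GRM7 exceeded all background, and no monoamine or muscarinic receptor did so on every array. The array carries 69 background probe sets, whose means ran from 1.30 to 7.49 and were higher where the probes held more G and C. A receptor was called clear of background if it lay above the highest background probe set of the array on all 12 arrays. That applied to these 4 of 38 genes, each represented by its brightest probe set. In GABBR2, GRM5 and GRM7 no probe set but the brightest was clear, and the others of GRM7 averaged 5.12, 4.39 and 2.74. GABBR1 alone had further clear probe sets. Over single probe sets, not chosen for brightness, 6 of 62 receptor probe sets were clear, or 9.68%, against 7.59% of the 47722 probe sets that are not controls. A further 32 genes lay within the background range, above the median background probe set on all 12 arrays but not above the highest. The serotonin 2B receptor gene HTR2B and the muscarinic M3 gene CHRM3 were dim, since they lay above the median on 0 and 1 of 12 arrays. Because the highest background probe sets are the richest in G and C, the limit is strict: with background of middle G and C content as the limit, 14 genes were above it on every array. These were the 4 clear genes with HTR1A, HTR2A, HTR2C, HTR3A, DRD2, ADRA1A, ADRA2A, HRH3, CHRM5 and GRM3.

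**Figure D1:**
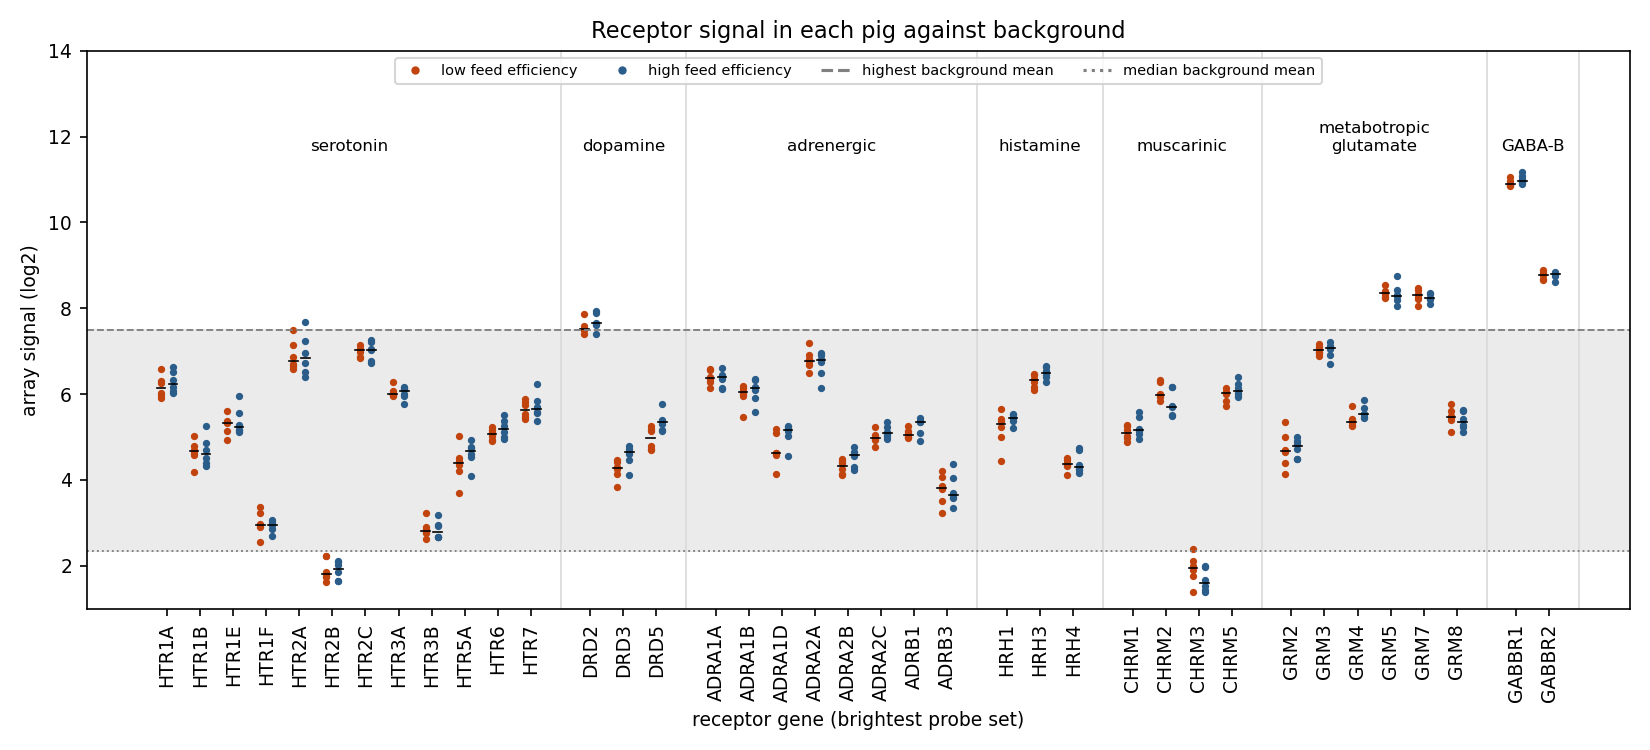
Array signal (log2) of each of the 38 receptor genes in each pig; points are pigs, low feed efficiency left of high, short bars are group medians and the shaded band spans the median to the highest mean of the background probe sets. GABBR1, GABBR2, GRM5 and GRM7 lie above the band in every pig, HTR2B and CHRM3 lie mostly below it, and the remaining genes lie in it or cross its upper edge.

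The GABA-B receptor works as a pair: GABBR1 binds GABA and GABBR2 couples to the G protein. GABBR1 signal was lowest 10.86, median 10.89 and highest 11.05 in low feed efficiency pigs, against 10.90, 10.98 and 11.17 in high feed efficiency pigs. The groups overlapped, although 4 of 6 low feed efficiency pigs lay below the lowest high feed efficiency pig, and limma gave a difference of -0.09 ± 0.06 (SE; adjusted p = 0.834). GABBR2 signal was lowest 8.67, median 8.78 and highest 8.90 in low feed efficiency pigs, against 8.61, 8.81 and 8.85 in high feed efficiency pigs. Here the medians nearly coincided, with a difference of 0.00 ± 0.07 (95% interval -0.15 to 0.16, limma adjusted p = 0.996).

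GRM5 encodes a Gq-coupled receptor of the postsynaptic side, and GRM7 a Gi-coupled receptor of the terminal. GRM5 signal was lowest 8.25, median 8.34 and highest 8.53 in low feed efficiency pigs, against 8.06, 8.29 and 8.75 in high feed efficiency pigs. The high feed efficiency pigs spanned the whole range of the low feed efficiency pigs, and the difference was 0.02 ± 0.10 (95% interval -0.19 to 0.24, limma adjusted p = 0.976). GRM7 signal was lowest 8.04, median 8.30 and highest 8.46 in low feed efficiency pigs, against 8.09, 8.23 and 8.35 in high feed efficiency pigs. For GRM7 it was the low feed efficiency pigs that reached both further down and further up, and the difference was 0.05 ± 0.08 (95% interval -0.13 to 0.23, limma adjusted p = 0.93).

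Not all probe sets of a gene reported alike. With all probe sets of a gene averaged, 1 receptor gene remained clear of background, and of the 62 probe sets 45 were within the background range and 11 dim. Among genes within the range, DRD2 lay above the highest background probe set on 10 of 12 arrays, HTR2A on 2 and HTR2C on 1. The spread between pigs was modest: the range over 12 arrays had a median of 0.68 over the 36 tested receptors, against 0.75 over all 35791 probe sets tested, and it lay between 0.29 and 0.69 in the 4 clear genes.

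Whether the receptors differ with feed efficiency was tested by limma with sex as a term, over the 36 genes that passed a filter on dim signal. HTR2B and CHRM3 did not pass and were not tested. No receptor passed an adjusted p of 0.05, and 0% of all probe sets did. At an unadjusted p under 0.05 there were 4 of 36 receptors, or 11.1%, against 6.15% of all probe sets. All 4 (DRD5, DRD3, ADRA1D and GRM4) were lower in low feed efficiency pigs, a direction in which 3.16% of all probe sets passed, against 2.99% in the other. The 2 groups of pigs were without overlap in 0 of 36 receptors and in 0.282% of all probe sets. Of the 36 differences 24 were negative and 12 positive, with a median of -0.08, whereas 50.6% of all probe sets were negative, with a median of -0.00. Of the background probe sets themselves, 64 of 69 were lower in low feed efficiency pigs, with a median of -0.03, and their part in the receptor values was not tested. Neuron markers were higher in low feed efficiency pigs in 5 of 6 genes (median 0.09) and oligodendrocyte markers lower in 4 of 5 (median -0.16), and the part of these was not tested either.

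**Figure D2:**
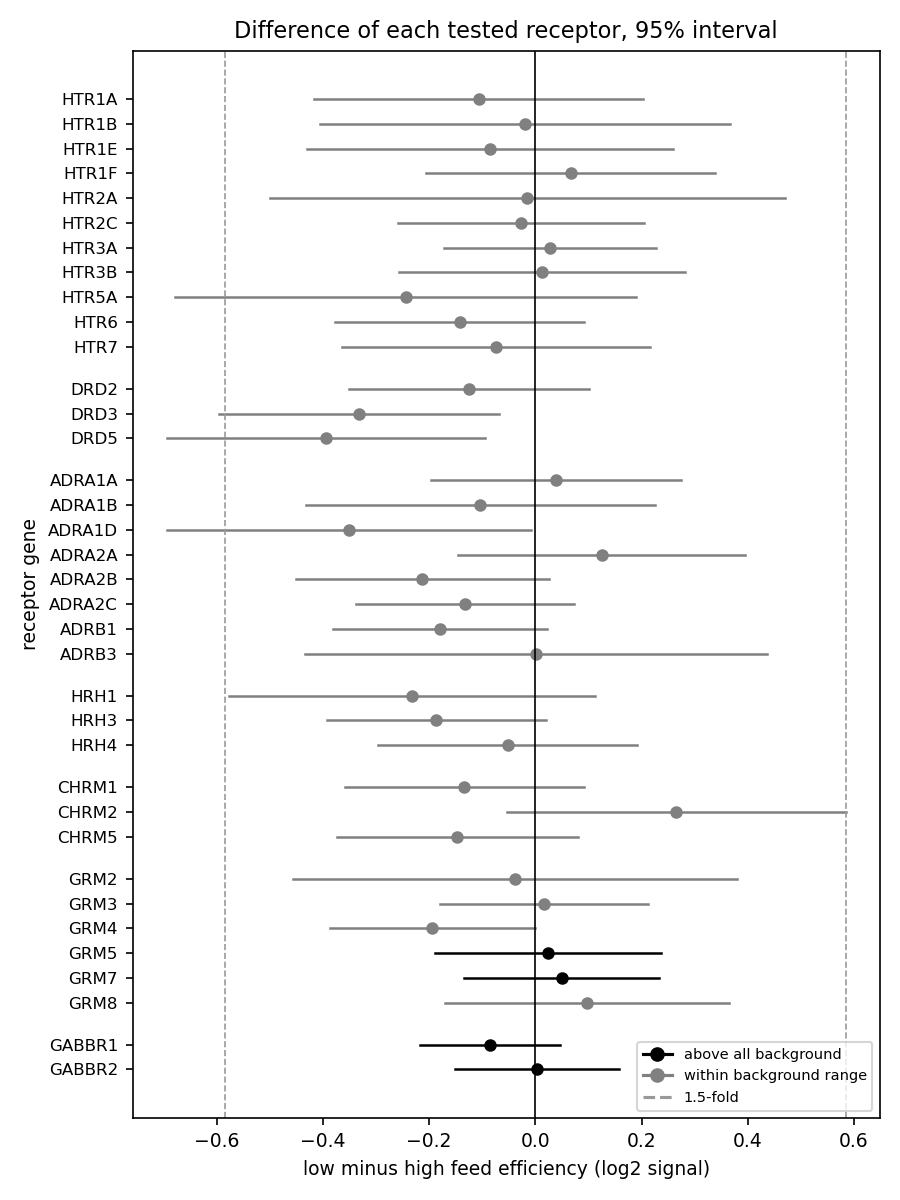
Difference in log2 signal, low minus high feed efficiency, for the 36 tested receptors; points are limma estimates, lines are 95% intervals, black marks genes clear of background and dashed lines mark a 1.5-fold difference. The estimates run from -0.39 to 0.27, and 32 of the 36 intervals stay inside the dashed lines, all but HTR5A, DRD3, DRD5 and ADRA1D.

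The dopamine receptors had the lowest median difference of the families, -0.33, and all 3 measured were negative. DRD5, which raises cyclic AMP through Gs, had a signal of lowest 4.69, median 4.97 and highest 5.25 in low feed efficiency pigs, against 5.13, 5.34 and 5.76 in high feed efficiency pigs. Of the low feed efficiency pigs, 3 lay below every high feed efficiency pig and the others overlapped. DRD5 averaged 4.96 ± 0.26 with low feed efficiency and 5.36 ± 0.23 with high (SD, n = 6 each). Its difference was -0.39 ± 0.14 (SE; limma unadjusted p = 0.0143, adjusted p = 0.775). DRD3, a Gi-coupled receptor, had a signal of lowest 3.83, median 4.27 and highest 4.45 in low feed efficiency pigs, against 4.11, 4.64 and 4.79 in high feed efficiency pigs. All low feed efficiency pigs lay below the mean of the high group, but only 1 lay below its lowest pig. The difference was -0.33 ± 0.12 (limma unadjusted p = 0.0182, adjusted p = 0.796). DRD5 and DRD3 both kept an unadjusted limma p under 0.05 whichever pig was left out (highest 0.0364 and 0.0452). Both genes were picked for their small p in these same pigs, so this gives no independent support. Neither signal lay above the highest background probe set on any array.

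DRD2, the Gi-coupled receptor through which dopamine acts on prolactin cells and on dopamine neurons themselves, had a signal of lowest 7.41, median 7.51 and highest 7.86 in low feed efficiency pigs, against 7.40, 7.65 and 7.93 in high feed efficiency pigs. The groups covered nearly the same range, although 5 of 6 low feed efficiency pigs lay below the mean of the high group, and the difference was -0.12 ± 0.10 (95% interval -0.35 to 0.10, limma adjusted p = 0.853). Without low feed efficiency replicate 4, the pig at 7.86, the DRD2 difference was -0.20 (limma unadjusted p = 0.0356). An unadjusted limma p under 0.05 was reached with only 1 of 12 pigs left out in turn (range 0.0356 to 0.452). Another DRD2 probe set gave -0.07. DRD1 and DRD4 were not analysed here. Markers of the striatum, a nearby region rich in dopamine receptors, were lower in low feed efficiency pigs in 3 of 3 genes, with a median difference of -0.08. Their mean log2 signal was 6.01 to 6.28 in low feed efficiency pigs and 6.09 to 6.52 in high feed efficiency pigs, and that of 7 anterior pituitary markers, of which 3 were dim, was 3.03 to 4.14 and 2.92 to 3.86 in the same groups. Their part in the dopamine receptor values was not tested.

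Among serotonin receptors, 8 of 11 tested differences were negative, with a median of -0.03. HTR2C, whose activation reduces feeding in rodents, had a signal of lowest 6.83, median 7.02 and highest 7.13 in low feed efficiency pigs, against 6.73, 7.04 and 7.27 in high feed efficiency pigs. The high feed efficiency pigs enclosed the low feed efficiency pigs, and the difference was -0.03 ± 0.11 (95% interval -0.26 to 0.20, limma adjusted p = 0.976). HTR2C is also known from choroid plexus, and the 7 choroid plexus markers averaged 4.73 to 5.17 in low feed efficiency pigs and 4.65 to 5.002 in high feed efficiency pigs, with 0 of 7 clear of background. Of these markers 4 were higher and 3 lower in low feed efficiency pigs. The brightest, TTR, varied widely, at 7.35 ± 0.75 with low feed efficiency and 6.82 ± 0.84 with high (SD). Its difference was 0.53 ± 0.41 (SE). The part of these markers in the HTR2C values was not tested. HTR2A, a Gq-coupled receptor, varied more, with a signal of lowest 6.58, median 6.78 and highest 7.49 in low feed efficiency pigs, against 6.40, 6.85 and 7.68 in high feed efficiency pigs. The high feed efficiency pigs enclosed the low feed efficiency pigs here too (difference -0.02 ± 0.22, limma adjusted p = 0.993).

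HTR1A and HTR1B are Gi-coupled receptors that also sit on serotonin neurons and damp their firing and release. HTR1A signal was lowest 5.91, median 6.15 and highest 6.58 in low feed efficiency pigs, against 6.02, 6.24 and 6.63 in high feed efficiency pigs. HTR1B signal was lowest 4.19, median 4.66 and highest 5.03 in low feed efficiency pigs, against 4.32, 4.60 and 5.25 in high feed efficiency pigs. Both overlapped, with differences of -0.11 ± 0.14 and -0.02 ± 0.18 (limma adjusted p = 0.907 and 0.991). HTR1F, a Gi-coupled receptor near the lower end of the background range, had a signal of lowest 2.56, median 2.96 and highest 3.36 in low feed efficiency pigs, against 2.70, 2.96 and 3.06 in high feed efficiency pigs. Its medians coincided, with a difference of 0.07 ± 0.12 (limma adjusted p = 0.939). The remaining serotonin genes differed by -0.24 ± 0.20 in HTR5A, -0.14 ± 0.11 in HTR6, -0.09 ± 0.16 in HTR1E, -0.07 ± 0.13 in HTR7, 0.03 ± 0.09 in HTR3A and 0.01 ± 0.12 in HTR3B, none past the adjusted threshold. HTR1D and HTR4 were not analysed here.

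The adrenergic family gave 5 negative and 3 positive differences, with a median of -0.12. ADRA1D, a Gq-coupled receptor, had a signal of lowest 4.14, median 4.63 and highest 5.19 in low feed efficiency pigs, against 4.55, 5.15 and 5.26 in high feed efficiency pigs. Only 1 low feed efficiency pig lay below the range of the high group. The difference was -0.35 ± 0.16 (limma unadjusted p = 0.0451, adjusted p = 0.804), and an unadjusted p under 0.05 was kept with 4 of 12 pigs left out in turn. ADRA1B, another Gq-coupled receptor, had a signal of lowest 5.46, median 6.04 and highest 6.18 in low feed efficiency pigs, against 5.59, 6.14 and 6.35 in high feed efficiency pigs. The ranges were nearly the same (difference -0.10 ± 0.15, limma adjusted p = 0.915).

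ADRA2A, the Gi-coupled receptor on noradrenergic terminals, had a signal of lowest 6.50, median 6.78 and highest 7.18 in low feed efficiency pigs, against 6.14, 6.79 and 6.96 in high feed efficiency pigs. The medians nearly coincided, and the difference was 0.13 ± 0.12 (limma adjusted p = 0.87). ADRB1, coupled to Gs, had a signal of lowest 4.97, median 5.04 and highest 5.25 in low feed efficiency pigs, against 4.90, 5.35 and 5.44 in high feed efficiency pigs. The lowest pig was of the high group, and the difference was -0.18 ± 0.09 (limma adjusted p = 0.813), where its other tested probe set, which was dim, gave 0.00. ADRA2B (-0.21 ± 0.11), ADRA2C (-0.13 ± 0.09), ADRA1A (0.04 ± 0.11) and ADRB3 (0.00 ± 0.20) made up the family.

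All 3 histamine receptors measured were lower in low feed efficiency pigs, with a median of -0.19. HRH3, the Gi-coupled receptor that damps histamine release, had a signal of lowest 6.10, median 6.32 and highest 6.46 in low feed efficiency pigs, against 6.28, 6.48 and 6.65 in high feed efficiency pigs. All low feed efficiency pigs lay below the mean of the high group and 3 below its lowest pig, but the groups overlapped (difference -0.19 ± 0.09, limma unadjusted p = 0.0723, adjusted p = 0.813). HRH1, which is coupled to Gq and mediates the satiety effect of histamine in rodents, had a signal of lowest 4.44, median 5.30 and highest 5.65 in low feed efficiency pigs, against 5.20, 5.45 and 5.54 in high feed efficiency pigs. The spread was wide in the low group alone (SD 0.42, against 0.12 in the high group), and the difference was -0.23 ± 0.16 (limma adjusted p = 0.827). Without low feed efficiency replicate 6, the pig at 4.44, the HRH1 difference was -0.095. HRH4 differed by -0.05 ± 0.11, and HRH2 was not analysed here.

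Of the muscarinic receptors, CHRM2 was the highest difference of all 36. CHRM2 encodes the Gi-coupled M2 receptor, which damps acetylcholine release. Its signal was lowest 5.84, median 5.99 and highest 6.33 in low feed efficiency pigs, against 5.49, 5.70 and 6.17 in high feed efficiency pigs. All low feed efficiency pigs lay above the mean of the high group and 2 above its highest pig. The difference was 0.27 ± 0.15 (95% interval -0.05 to 0.58, limma unadjusted p = 0.095, adjusted p = 0.818), and the mean of its other tested probe sets gave 0.21. CHRM1 and CHRM5, both Gq-coupled, differed by -0.13 ± 0.10 and -0.15 ± 0.10. The Gq-coupled CHRM3, dim and untested, had a signal of lowest 1.38, median 1.94 and highest 2.39 in low feed efficiency pigs, against 1.40, 1.60 and 1.99 in high feed efficiency pigs. The groups overlapped at a level where little beyond background can be read. CHRM4 was not analysed here.

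The metabotropic glutamate receptors gave 4 positive and 2 negative differences, with a median of 0.02. GRM4, a Gi-coupled receptor of the terminal, had a signal of lowest 5.25, median 5.35 and highest 5.71 in low feed efficiency pigs, against 5.44, 5.53 and 5.87 in high feed efficiency pigs. All but 1 low feed efficiency pig lay below the lowest high feed efficiency pig. The difference was -0.19 ± 0.09 (limma unadjusted p = 0.0485, adjusted p = 0.812), and an unadjusted p under 0.05 was kept with 2 of 12 pigs left out in turn. GRM8, of the same group, had a signal of lowest 5.12, median 5.47 and highest 5.78 in low feed efficiency pigs, against 5.10, 5.35 and 5.62 in high feed efficiency pigs. The groups overlapped, with 1 low feed efficiency pig above the range of the high group (difference 0.10 ± 0.12, limma adjusted p = 0.902). The Gi-coupled GRM2 and GRM3 differed by -0.04 ± 0.19 and 0.02 ± 0.09. GRM6 was not analysed here.

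**Figure D3:**
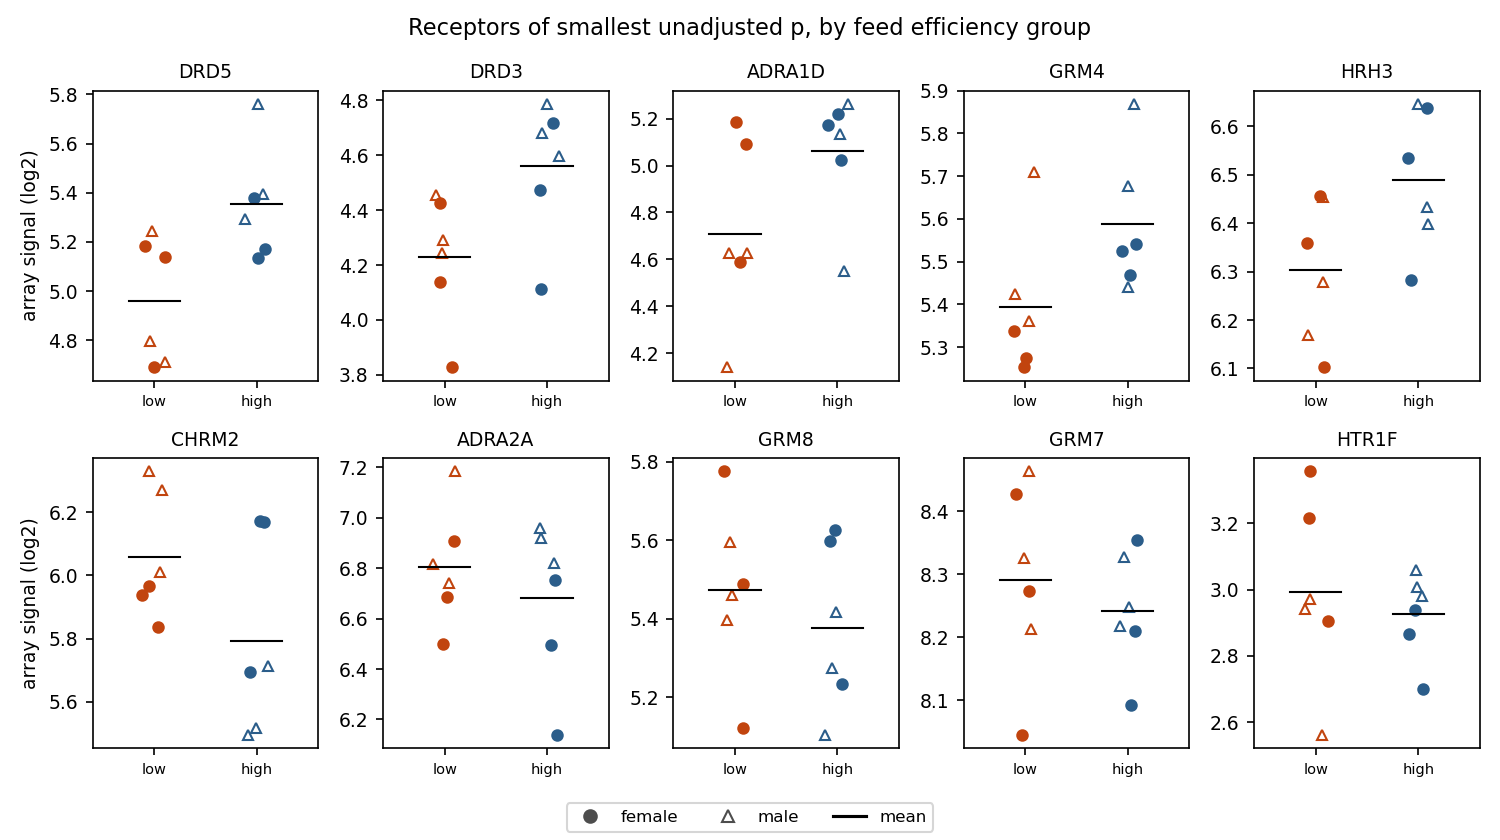
Array signal (log2) in each pig for the 5 receptors per direction with the smallest unadjusted p, low feed efficiency left of high; circles are females, open triangles males and bars group means. The upper row holds genes that were lower in low feed efficiency pigs, from DRD5 at -0.39 to HRH3 at -0.19, and the lower row genes that were higher, from CHRM2 at 0.27 down to HTR1F at 0.07, and groups overlap in every panel.

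By the G protein they use, 13 of 20 Gi-coupled receptors were negative (median -0.07), as were 7 of 9 Gq-coupled receptors (median -0.10). So were 4 of 5 Gs-coupled receptors (median -0.14) and 0 of 2 channel subunits, against 50.6% of all probe sets. Most of these receptors lay within the background range, and whether the classes differ was not tested. Where a gene had another tested probe set, 9 of 11 genes had the same sign on average, all but GRM7 (0.05 and -0.01) and ADRB1 (-0.18 and 0.00). The -0.01 of GRM7 is the mean of -0.08, 0.32 and -0.26 from its dimmer probe sets. The 0.00 of ADRB1 comes from a single probe set, which was dim.

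Genes that act with the receptors were followed in 5 lists, none of which held a gene past the adjusted threshold. Of 17 measured genes that make, carry or break down monoamines, acetylcholine and histamine, 7 were higher and 10 lower in low feed efficiency pigs (median -0.02). Of these, 3 had an unadjusted p under 0.05, or 17.6%, against 6.15% of all probe sets. All 3 were lower, a direction in which 3.16% of all probe sets passed: DBH, which makes noradrenaline from dopamine, at -0.27 ± 0.11, SLC18A3, the vesicular acetylcholine transporter, at -0.28 ± 0.12, and CHAT, which makes acetylcholine, at -0.18 ± 0.08. All 3 lay within the background range. Their means with low and high feed efficiency were 4.59 and 4.86 (DBH), 5.28 and 5.56 (SLC18A3), and 4.17 and 4.35 (CHAT). Of 13 genes of glutamate and GABA synthesis, loading and uptake 9 were higher and 4 lower (median 0.05). SLC17A6, a vesicular glutamate transporter gene also counted among the thalamic markers, was at 0.23 ± 0.13. Of 21 G protein subunits 12 were higher and 9 lower (median 0.02), and 1 had an unadjusted p under 0.05, or 4.76%, a share near the 6.15% of all probe sets. It was GNAO1, the main brain alpha subunit of the Gi class, with a difference of -0.20 ± 0.09. Of 23 effectors 12 were higher and 11 lower (median 0.00), and 2 had an unadjusted p under 0.05, or 8.70%: the adenylyl cyclase gene ADCY7 at 0.28 ± 0.12 and the calcium release channel gene ITPR3 at -0.21 ± 0.09. Of 19 genes of desensitization and scaffolds 5 were higher and 14 lower (median -0.06), with RGS2, which curbs Gq signals, at 0.17 ± 0.09.

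Females and males were compared with feed efficiency as a term. No receptor passed an adjusted p of 0.05, against 0.0224% of all probe sets. At an unadjusted p under 0.05 there was 1 of 36 receptors, or 2.78%, against 4.74% of all probe sets. That gene was ADRA2A, with a signal of lowest 6.14, median 6.59 and highest 6.91 in females, against 6.74, 6.87 and 7.18 in males. Females lay mostly lower but overlapped males, and the difference was -0.33 ± 0.12 (female minus male, limma unadjusted p = 0.0215, adjusted p = 0.996). Next in size of p were CHRM1 (-0.22 ± 0.10) and GABBR1 (-0.13 ± 0.06) among those lower in females, and ADRA1D (0.32 ± 0.16), GRM5 (0.19 ± 0.10) and HTR7 (0.20 ± 0.13) among those higher. Sex was partly tied to the run of pig identifiers, since all males had a lower identifier and 2 of 3 females per group a higher one.

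Whether the feed efficiency difference itself differs between the sexes was tested as an interaction, females minus males. None of the 36 receptors passed an adjusted p of 0.05, and 0% of all probe sets did, while 4 receptors, or 11.1%, had an unadjusted p under 0.05, against 6.07% of all probe sets. The largest was CHRM2, at -0.73 ± 0.21 (limma unadjusted p = 0.00524, adjusted p = 0.779). In males its signal was 6.01, 6.27 and 6.33 with low feed efficiency, against 5.49, 5.52 and 5.71 with high. In females it was 5.84, 5.94 and 5.97 with low feed efficiency, against 5.69, 6.17 and 6.17 with high. The groups did not overlap in males and did in females, where the low feed efficiency pigs lay inside the range of the high ones.

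HRH1 came next, at -0.66 ± 0.26 (limma unadjusted p = 0.0275, adjusted p = 0.785). In females its signal was 4.44, 5.0007 and 5.23 with low feed efficiency, against 5.37, 5.46 and 5.54 with high, and in males 5.38, 5.42 and 5.65 with low, against 5.20, 5.44 and 5.51 with high. The groups did not overlap in females and did in males. Without low feed efficiency replicate 6, the HRH1 interaction was -0.44 and its difference in females -0.34. HTR1F (0.52 ± 0.21, limma adjusted p = 0.785) and ADRA2C (0.37 ± 0.16, limma adjusted p = 0.81) had the other unadjusted p under 0.05, followed by HTR3A (0.31 ± 0.16) and GRM3 (-0.31 ± 0.16). ADRA2C signal was 4.77, 4.93 and 5.04 in low feed efficiency males, against 5.12, 5.23 and 5.34 in high feed efficiency males, with no overlap. Over all 36 receptors 19 interactions were positive and 17 negative, against 50.7% positive over all probe sets, and 17 of 36 receptors had opposite signs in the 2 sexes.

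**Figure D4:**
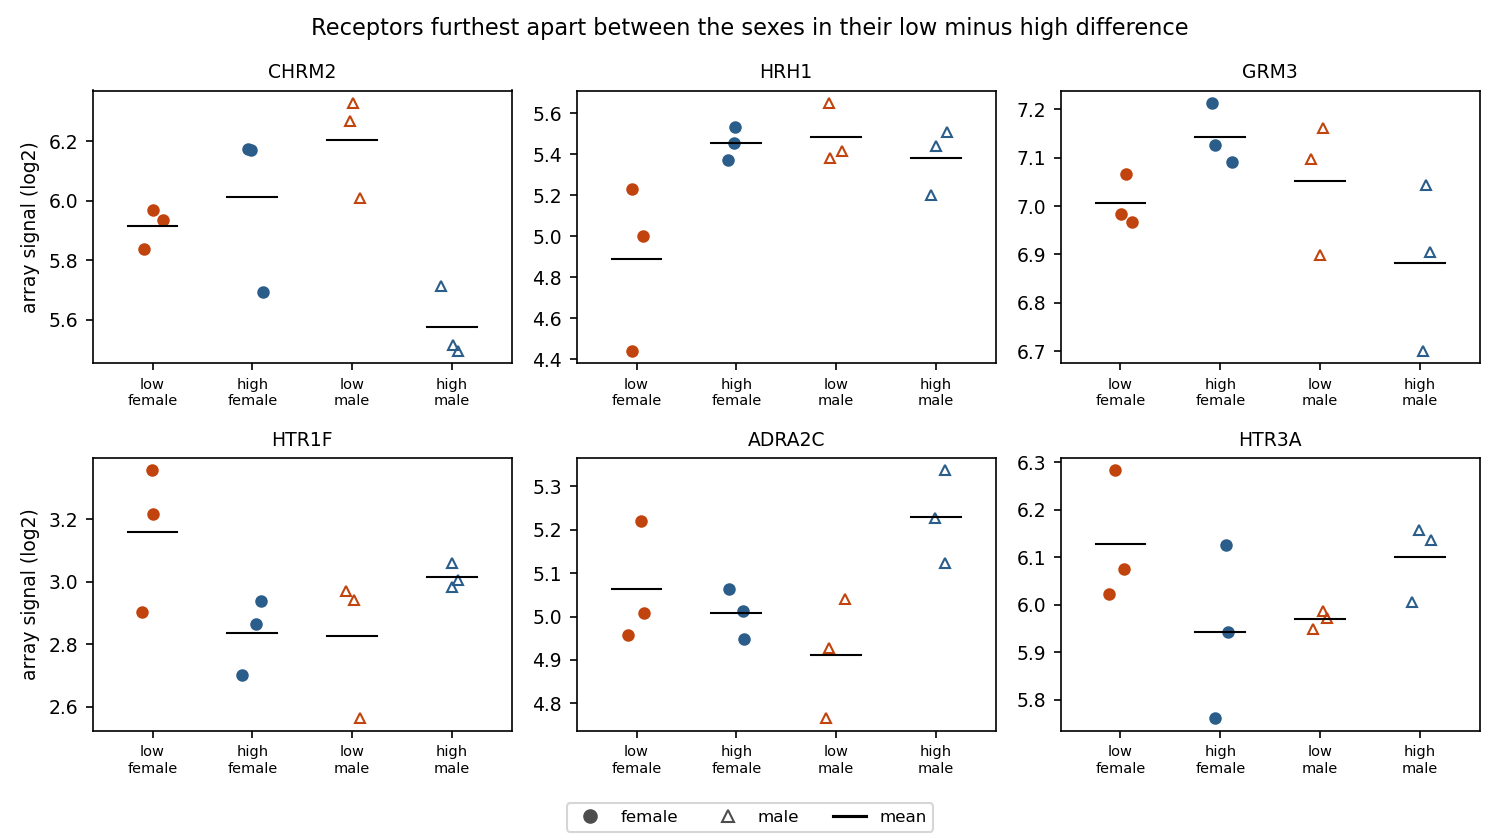
Array signal (log2) by feed efficiency and sex for the 3 receptors per direction with the smallest unadjusted p for the interaction; circles are females, open triangles males and bars means of 3 pigs. CHRM2 is higher in low feed efficiency males than in high feed efficiency males, without overlap, and HRH1 is lower in low feed efficiency females than in high feed efficiency females, without overlap.

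Within males no receptor passed an adjusted p of 0.05, against 0.00838% of all probe sets, and 4 of 36 receptors, or 11.1%, had an unadjusted p under 0.05, against 8.82% of all probe sets. They were CHRM2 (0.63 ± 0.15, limma adjusted p = 0.358), DRD5 (-0.56 ± 0.19, limma adjusted p = 0.472), ADRA2C (-0.32 ± 0.11, limma adjusted p = 0.497) and ADRA1D (-0.52 ± 0.22, limma adjusted p = 0.543). DRD5 signal was 4.71, 4.80 and 5.25 in low feed efficiency males, against 5.29, 5.39 and 5.76 in high feed efficiency males, without overlap. The groups did not overlap in 8 of 36 receptors in males, or 22.2%, against 14.3% of all probe sets: CHRM2 was higher with low feed efficiency, and HTR1F, HTR3A, DRD2, DRD3, DRD5, ADRA2C and ADRB1 were lower.

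Within females no receptor passed an adjusted p of 0.05, and 0% of all probe sets did. HRH1 (-0.56 ± 0.18, unadjusted p = 0.011) and HTR1F (0.32 ± 0.15, unadjusted p = 0.0495) had an unadjusted limma p under 0.05, which is 5.56% of 36 receptors, against 4.18% of all probe sets. The groups did not overlap in 4 of 36 receptors in females, or 11.1%, against 8.64% of all probe sets, and HRH1, GRM3, GRM4 and GABBR1 were all lower with low feed efficiency. GRM4 signal was 5.25, 5.27 and 5.34 in low feed efficiency females, against 5.47, 5.53 and 5.54 in high feed efficiency females (difference -0.22 ± 0.13).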

How the data were processed

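RNA from 12 hypothalami was measured on 12 arrays. The authors deposited 1 log2 value per probe set and array; the log2 scale was read from the values, and how background was corrected and arrays were summarised and normalized is not given in the sources used. GCOS version 1.1.1 is named in the submitters' processing notes. Gene names came from the platform annotation (26426 probe sets with 1 symbol, 0 with several, 21419 with none). All 38 receptor symbols were found in RefSeq (Sscrofa11.1), which holds 47 genes of the rule, and 9 of these were not analysed here.

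After 123 control probe sets were left out, the 25 percent with the lowest mean (under 2.43) were left out too, which left 35791. limma (version 3.58.1, under R 4.3.3) supplied the models through lmFit and eBayes, and p-values were adjusted by Benjamini-Hochberg over all of these at 0.05. The feed efficiency model carried a sex term, and the sex model a feed efficiency term; the interaction and within-sex differences came from a fit of 4 groups, which share 1 estimate of the spread. The low versus high fit was also run on simulated data, with independent noise and changes larger than any receptor difference found in that comparison. That run does not show how the fit performs at differences as small as these. Replicates were numbered in accession order and are not paired. Values by group are given for genes clear of background, for the 5 genes per direction with the smallest unadjusted p (3 for sex and interaction, 2 within a sex) and for receptors known in feeding; other genes are named with their values for completeness. The receptors and gene lists were chosen with earlier results of these data known, and the 10 hypothalamic markers after the values were seen. Alternatives were other filters, normalizations, variance models, covariates, array weights, probe set averages, background limits and leaving out each pig. Plots were drawn with matplotlib version 3.10.9.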

Additional observations from a re-analysis of the deposited data

Results flagged for a closer look

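In 3 of 76 checks of a receptor in a group of 6 pigs, 1 pig stood far from the others, with a gap to the nearest pig above Dixon's 95 percent critical share of the group's whole range, where chance gives about 3.8. ADRA1B was lowest in low feed efficiency replicate 6, at 5.46 against 5.95 in the nearest pig (gap 0.676 of the range), and without that pig its difference was -0.0073 on the log2 scale. ADRA1D was lowest in high feed efficiency replicate 1, at 4.55 against 5.03 in the nearest pig (gap 0.665 of the range), and without that pig its difference was -0.43. GRM4 was highest in low feed efficiency replicate 3, at 5.71 against 5.42 in the nearest pig (gap 0.627 of the range), and without that pig its difference was -0.24.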

How the results depend on the processing

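No receptor passed an adjusted p of 0.05 under any alternative run for the 5 comparisons, and the lowest limma adjusted p over them was 0.573 for low versus high feed efficiency, 0.884 for sex, 0.485 for the interaction, 0.244 within males and 0.904 within females. The 4 receptors with an unadjusted p under 0.05 became 2 with no sex term and 2 to 6 when a pig was left out: 2 without high feed efficiency replicate 3 or low feed efficiency replicate 1, 2 or 5, and 6 without high feed efficiency replicate 6. The count of 4 receptors clear of background depended on the limit, with 36 above the median background, 14 above background of middle G and C content and 1 when the signal was averaged over each gene's probe sets. The median difference stayed between -0.10 and -0.05. Of 21 receptors named for low versus high, 15 kept their sign throughout. HTR1B (0.0023) and HTR2A (0.0067) turned with equal array medians, which moved the median of all probe sets to 0.02, and GABBR2 with repeated quantile normalization (-0.0080) and array weights (-0.0019). With a pig left out, HTR1F ran from -0.0063 to 0.15, HTR2C from -0.080 to 0.040, HTR1B from -0.10 to 0.11, HTR2A from -0.12 to 0.13, GRM5 from -0.017 to 0.096 and GABBR2 from -0.031 to 0.025. The cause was not tested. No paired analysis was possible because the labels give no replicate numbers that link pigs of the groups. Signals near background limit what can be read of most monoamine and muscarinic receptors.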
